A study of Homo sapiens with 16 samples.

Results

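Transcript levels of glycogen and polyol pathway genes were examined by RNA sequencing in a pair of established lines from human breast tumors. The lines, MDA-MB-231 and its counterpart MDA-MB-468, both lack the estrogen receptor. The 9 genes (PGM1, UGP2, GYG1, GYS1, GBE1, PYGB, PYGL, AKR1B1 and SORD) were picked by name from the 18332 genes of the table, with their counts in these groups already known. For 48 hours each line was kept with glucose at 5 mM, the control, called low glucose here, or at 25 mM, called high glucose, with which the study models hyperglycemia, with 4 replicates in each of the 4 groups. Per the study's methods, cells were conditioned in low-glucose medium first and then grown without serum. Some experiments of the study added mannitol to the control medium for osmolarity, and whether these samples had it is not given in the sources used here. A cell line is a single tumor-derived culture, so the replicates are samples of that line and do not stand for patients.

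Cells take glucose into glycogen through glucose-6-phosphate. Phosphoglucomutase (PGM1) moves its phosphate group, UDP-glucose pyrophosphorylase (UGP2) turns the product into UDP-glucose, and glycogenin (GYG1), glycogen synthase (GYS1) and branching enzyme (GBE1) start, lengthen and branch the chain. Glycogen phosphorylases release the stored glucose, with PYGB known as the brain form and PYGL as the liver form. The polyol pathway is a side route in which aldose reductase (AKR1B1) reduces glucose to sorbitol and sorbitol dehydrogenase (SORD) oxidizes sorbitol to fructose. It is best known for its part in diabetic tissue damage, and sorbitol also acts as an osmolyte.

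Values are normalized reads, that is, read counts after division by the library's size factor. Libraries held between 14094597 and 24425916 recovered reads, so that 3 reads corresponded to between 2.144 and 3.434 normalized reads. The spread within pairs of replicates exceeded that of counting, the chi-square divided by the number of genes being 2.02 to 5.2, where counting alone gives about 1. Pairs with replicate 4 of low-glucose MDA-MB-231 gave 3.83 to 5.2, and the other pairs of that group 2.13 to 2.66. In the other groups the highest was 4.23, in high-glucose MDA-MB-468. The lines fitted their labels. VIM, a mesenchymal marker, had a mean of 96228 normalized reads in low-glucose MDA-MB-231 and 21.5 in low-glucose MDA-MB-468. The epithelial genes CDH1 (5.51 against 2007) and EPCAM (215 against 5428) and the receptor gene EGFR (9138 against 62683) ran the other way. ESR1 did not exceed 69.7 in any sample, though its low-glucose mean was 57.9 in MDA-MB-468 and 1.31 in MDA-MB-231. PGR, also listed as a marker, was not among the genes of the table. No label names a date or batch of sequencing. RNA was measured in bulk, so fewer cells expressing a gene and less RNA per cell cannot be told apart.

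The regions upstream of a few of these genes are shown, because PGM1 and GYG1 had the largest rises with glucose in MDA-MB-468, UGP2 fell there, and AKR1B1 moved in opposite directions in the 2 lines. RefSeq sequences of the 250 bases before a transcription start (GRCh38.p14) were on hand for 8 of the 9 genes, in 12 entries. For a gene with several starts the most upstream one is printed. Capitals mark the motifs ACGTG and GCGTG, the core letters of a hypoxia response element, searched on both strands; the PGM1 window shown has none.
PGM1 (chr1:63593161-63593410, plus strand): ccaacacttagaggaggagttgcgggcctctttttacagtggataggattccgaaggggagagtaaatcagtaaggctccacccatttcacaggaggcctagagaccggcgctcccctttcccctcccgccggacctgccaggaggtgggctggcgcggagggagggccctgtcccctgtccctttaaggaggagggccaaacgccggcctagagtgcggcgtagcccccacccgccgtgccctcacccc
GYG1 (chr3:148991290-148991539, plus strand): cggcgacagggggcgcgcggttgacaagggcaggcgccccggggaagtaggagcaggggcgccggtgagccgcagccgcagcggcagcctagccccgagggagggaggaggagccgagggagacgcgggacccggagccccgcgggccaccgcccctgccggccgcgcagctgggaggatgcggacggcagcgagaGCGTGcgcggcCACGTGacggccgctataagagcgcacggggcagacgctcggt
UGP2 (chr2:63840719-63840968, plus strand): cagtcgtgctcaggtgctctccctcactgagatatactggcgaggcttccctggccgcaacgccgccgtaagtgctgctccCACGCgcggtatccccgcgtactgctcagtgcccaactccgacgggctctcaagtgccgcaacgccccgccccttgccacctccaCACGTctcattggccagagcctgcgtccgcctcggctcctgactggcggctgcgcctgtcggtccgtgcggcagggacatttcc
AKR1B1 (chr7:134459240-134459489, minus strand): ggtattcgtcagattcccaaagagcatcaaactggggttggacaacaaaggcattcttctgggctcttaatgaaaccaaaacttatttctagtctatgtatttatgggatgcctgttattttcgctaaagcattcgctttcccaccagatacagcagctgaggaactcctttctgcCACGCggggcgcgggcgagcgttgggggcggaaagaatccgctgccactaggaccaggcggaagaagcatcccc

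ACGTG was found in 4 of the 12 entries (GBE1, GYG1, PGM1 and UGP2, for PGM1 in another entry than the one shown) and in 18.5% of all 35116 promoter entries. GCGTG was found in 9 of the 12 entries and in 32.2% of all. The E-box CACGTG, whose letters hold ACGTG on both strands and which factors including the glucose-responsive MondoA and ChREBP are known to bind as pairs, was found in 1 of the 12 entries, that of GYG1, and in 6.34% of all. TGGAAA, the core of the tonicity element, was found in 0 of the 12 entries and in 18.0% of all. These are matches of letters in a short window and not binding sites.

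The first question was how the 9 genes differed between high and low glucose in each line. Differences were fitted with limma on log2(normalized reads + 1) across all genes that passed a minimum of 0.5 CPM (reads scaled to a common library size) in 2 or more samples, and a gene past the threshold had an adjusted p under 0.05. All 9 genes passed the minimum in both lines. Because these genes were chosen with their values known, their own differences are given as a description with no p-value. "Rose" and "fell" are used for genes past that threshold, which serves here as a cutoff and not as a test of these genes.

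In MDA-MB-468, 5 of the 9 genes rose with glucose (PGM1, GYG1, PYGB, GBE1 and SORD), 3 fell (UGP2, AKR1B1 and GYS1), and PYGL was not past the threshold. Over all 15757 genes tested in this line, 24.9% rose and 22.7% fell. In MDA-MB-231, 2 genes rose (AKR1B1 and PYGB), GBE1 fell, and 6 were not past the threshold. Among all 14884 genes tested there, 5.71% rose and 9.37% fell. The low- and high-glucose samples did not overlap for 8 of the 9 genes in MDA-MB-468, against 42.5% of all genes there. They did not overlap for 3 of the 9 genes in MDA-MB-231, against 18.7% of all genes. The median absolute log2 fold change of the 9 genes was 0.296 in MDA-MB-468, beside 0.208 over all genes tested, and 0.045 in MDA-MB-231, beside 0.101.

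**Figure D1:**
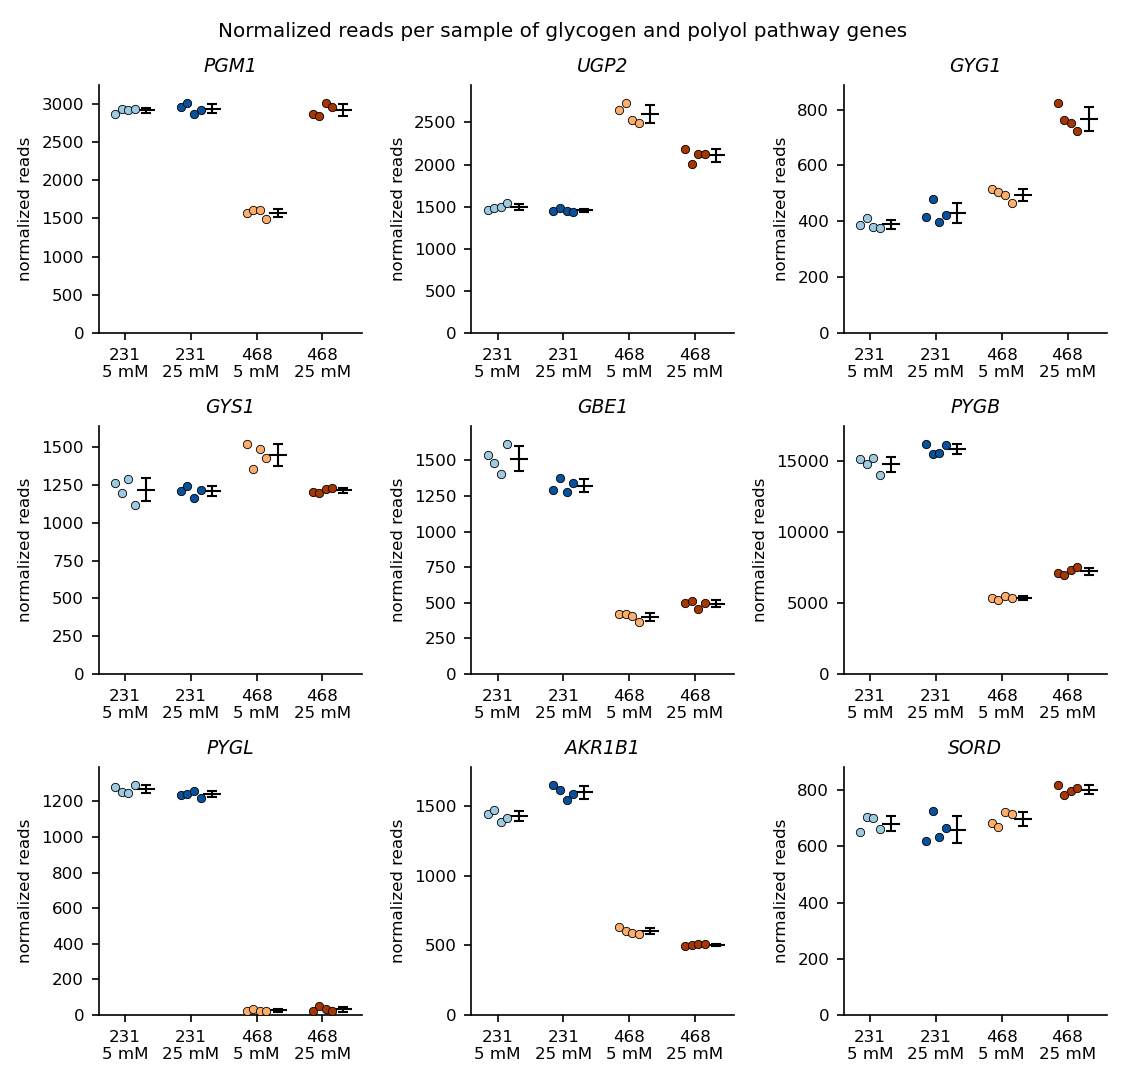
Normalized reads (y axis, from 0) of each of the 9 genes in the 4 groups (x axis; cell line and glucose concentration). Points are the 4 replicates and the bar beside them is the mean ± SD; PGM1 in low-glucose MDA-MB-468 sits between 1491 and 1615, below every other group, and PYGL in MDA-MB-468 stays under 50 in all 8 samples.

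Of the enzymes of glucose phosphates, PGM1 (ENSG00000079739; GRCh37 chromosome 1, 64059082 to 64125916, plus strand, 11 exons) had the largest glucose difference of the 9. In MDA-MB-468 its replicates had 1571, 1606, 1615 and 1491 normalized reads in low glucose and 2870, 2840, 3014 and 2964 in high glucose. The mean went from 1571 ± 56.4 (SD, n = 4) to 2922 ± 80.7, a rise of 1.86-fold (log2 fold change 0.90, SE 0.04). In MDA-MB-231 the samples held 2864, 2937, 2927 and 2935 in low glucose and 2962, 3014, 2867 and 2918 in high glucose, and the groups overlapped (log2 fold change 0.01, SE 0.03). PGM1 in MDA-MB-468 was thus low in 1 group alone: the range of its high-glucose samples overlapped that of MDA-MB-231. ITGB3BP overlaps the start of PGM1 on the opposite strand, and its log2 fold changes were 0.14 in MDA-MB-468 (limma adjusted p 0.0755) and -0.18 in MDA-MB-231 (limma adjusted p 0.342). The part of ITGB3BP in the PGM1 values was not tested.

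UGP2 (ENSG00000169764; chromosome 2, 64068086 to 64118696, plus strand), which acts on the product of PGM1, went the other way. In MDA-MB-468 it fell from between 2497 and 2732 normalized reads to between 2001 and 2186, with no overlap (log2 fold change -0.30, SE 0.04). In MDA-MB-231 its mean was 1493 ± 34.3 in low and 1455 ± 21.1 in high glucose, and its log2 fold change was -0.04 (SE 0.04). Per length of transcript, PGM1 made up 35.7% ± 0.875 (SD, n = 4) of the PGM1 and UGP2 reads in low-glucose MDA-MB-468 and 56.0% ± 0.912 in high glucose. In MDA-MB-231 the share was 64.2% ± 0.376 and 65.0% ± 0.315. The order of the 2 enzymes per length was therefore turned over by glucose in MDA-MB-468, where UGP2 led in low glucose and PGM1 in high glucose.

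The genes that build the chain did not move as 1 group. GYG1 (ENSG00000163754; chromosome 3, 148709195 to 148749562, plus strand), which primes glycogen synthesis, had 516, 505, 495 and 465 normalized reads in the low-glucose replicates of MDA-MB-468 and 824, 762, 753 and 722 in the high-glucose ones. It rose 1.54-fold (log2 fold change 0.63, SE 0.05), the second largest difference of the 9. In MDA-MB-231 it had 387, 412, 381 and 377 in low and 416, 481, 399 and 424 in high glucose, where the groups overlapped and the log2 fold change of 0.14 (SE 0.06) was not past the threshold. The last part of GYG1 overlaps HLTF on the opposite strand, and whether reads were counted by strand is not given in the sources used here. HLTF fell in both lines, with log2 fold changes of -0.19 (limma adjusted p 0.000928) in MDA-MB-468 and -0.20 (0.00811) in MDA-MB-231. The part of HLTF in the GYG1 values was not tested.

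GYS1 (ENSG00000104812; chromosome 19, 49471387 to 49496567, minus strand, 16 exons), which encodes the synthase found outside the liver, fell in MDA-MB-468 from 1448 ± 71.9 (SD, n = 4) to 1215 ± 15.9 normalized reads (log2 fold change -0.25, SE 0.04). Its lowest low-glucose sample, at 1357, lay above its highest high-glucose sample, at 1232. In MDA-MB-231 GYS1 had 1218 ± 76 and 1209 ± 34.5, a log2 fold change of -0.01 (SE 0.05). As with PGM1, the MDA-MB-468 group that stood apart was the low-glucose one, here on the high side.

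GBE1 (ENSG00000114480; chromosome 3, 81538854 to 81810796, minus strand, 16 exons), the branching enzyme whose loss causes a glycogen storage disease, moved in opposite directions in the 2 lines. In MDA-MB-231 its replicates had 1539, 1485, 1406 and 1616 normalized reads in low glucose and 1293, 1379, 1276 and 1342 in high glucose. In MDA-MB-468 they had 418, 421, 405 and 363 in low glucose and 502, 512, 456 and 502 in high glucose. GBE1 thus rose by 0.30 on the log2 scale (SE 0.06) in MDA-MB-468 and fell by 0.19 (SE 0.04) in MDA-MB-231, with no overlap of the glucose groups in either line. Per length, GBE1 made up 25.2% ± 1.59 of the GBE1 and GYS1 reads in low-glucose MDA-MB-468 and 33.0% ± 1.33 in high glucose. In MDA-MB-231 the share was 60.1% ± 2.76 in low and 57.0% ± 0.367 in high glucose.

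**Figure D2:**
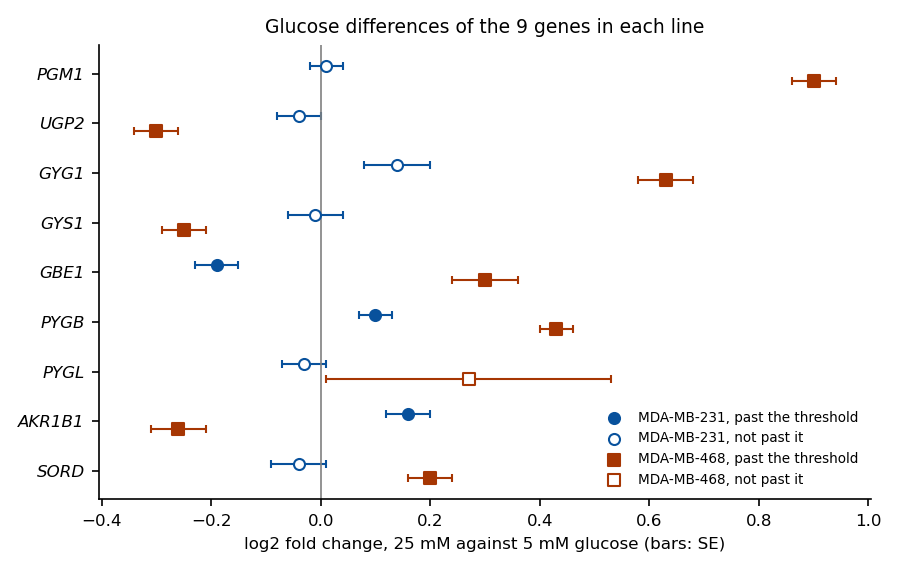
Log2 fold change of each gene in 25 mM against 5 mM glucose (x axis, log2 scale; bars are the SE of the limma fit), in MDA-MB-231 (circles) and MDA-MB-468 (squares), with filled symbols past the threshold. GBE1 and AKR1B1 have filled symbols on opposite sides of 0, and PGM1 in MDA-MB-468 lies farthest to the right at 0.90.

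Of the phosphorylases, PYGB was the most abundant of the 9 genes per length in every group. PYGB (ENSG00000100994; chromosome 20, 25228721 to 25278648, plus strand, 20 exons) had 5374, 5205, 5495 and 5372 normalized reads in low-glucose MDA-MB-468 and 7118, 6990, 7341 and 7545 in high glucose. It rose 1.35-fold in this line (log2 fold change 0.43, SE 0.03). In MDA-MB-231 it had 15137, 14799, 15195 and 14039 in low glucose and 16213, 15482, 15593 and 16138 in high glucose. The MDA-MB-231 rise of 0.10 (SE 0.03) was small, with no overlap, and 6 of 20 alternative settings put it outside the threshold. PYGB overlaps ABHD12 on the opposite strand at its last part, and ABHD12 had log2 fold changes of 0.25 (limma adjusted p 5.12e-05) in MDA-MB-468 and -0.12 (0.114) in MDA-MB-231. Its part in the PYGB values was not tested.

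PYGL (ENSG00000100504; chromosome 14, 51324609 to 51411201, minus strand, 20 exons) had low values in MDA-MB-468. Its replicates had 19.8, 34.3, 24.5 and 23.4 normalized reads in low glucose and 20.4, 48.1, 35.5 and 24.4 in high glucose, from between 21 and 44 recovered reads a library. The glucose groups overlapped, and the log2 fold change of 0.27 had an SE of 0.26, so that a difference of this size was not detectable at this depth. In MDA-MB-231 it had 1278, 1254, 1244 and 1292 in low and 1235, 1243, 1260 and 1220 in high glucose, with overlap and a log2 fold change of -0.03 (SE 0.04). Per length, PYGL made up 11.2% ± 0.507 of the PYGB and PYGL reads in low-glucose MDA-MB-231 and 10.3% ± 0.322 in high glucose. In MDA-MB-468 it made up 0.696% ± 0.183 and 0.65% ± 0.265.

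AKR1B1 (ENSG00000085662; chromosome 7, 134127108 to 134144036, minus strand, 10 exons), the first enzyme of the polyol pathway, was the other gene with opposite glucose differences. In MDA-MB-231 its replicates had 1438, 1470, 1385 and 1416 normalized reads in low glucose and 1650, 1611, 1545 and 1582 in high glucose. In MDA-MB-468 they had 631, 602, 589 and 581 in low glucose and 493, 500, 506 and 512 in high glucose. It fell by 0.26 (SE 0.05) on the log2 scale in MDA-MB-468 and rose by 0.16 (SE 0.04) in MDA-MB-231, and in neither line did the groups overlap. Its relatives AKR1B10 and AKR1B15 had at most 4 recovered reads a library in MDA-MB-231. In MDA-MB-468 AKR1B10 had between 78 and 132 and AKR1B15 between 52 and 127, where AKR1B1 had between 442 and 798. Whether they share reads with AKR1B1 was not tested.

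SORD (ENSG00000140263; chromosome 15, 45315345 to 45369383, plus strand), the second enzyme of the route, rose in MDA-MB-468 from between 670 and 724 normalized reads to between 783 and 819 (log2 fold change 0.20, SE 0.04). In MDA-MB-231 it had 680 ± 26.8 (SD, n = 4) and 660 ± 47.6, and the groups overlapped (log2 fold change -0.04, SE 0.05). SORD values are uncertain because the near-identical copy SORD2P could share its reads. SORD2P had between 6.29 and 30.9 normalized reads in MDA-MB-468 and between 40.2 and 75.1 in MDA-MB-231. In MDA-MB-468 the 2 polyol genes thus moved apart, and the AKR1B1 share of their reads per length went from 75.3% ± 1.24 to 68.9% ± 0.589. In MDA-MB-231 it was 88.1% ± 0.483 in low and 89.5% ± 0.706 in high glucose.

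The second question was whether the glucose difference itself differed between the lines, taken as the MDA-MB-468 difference minus the MDA-MB-231 difference in a limma fit of all 16 samples. For 8 of the 9 genes this was past the threshold, 5 higher in MDA-MB-468 (PGM1, GYG1, GBE1, PYGB and SORD) and 3 lower (UGP2, GYS1 and AKR1B1). Over the 17115 genes of that fit, 17.0% were higher and 13.9% lower. The values ran from 0.88 (SE 0.04) for PGM1 to -0.42 (SE 0.05) for AKR1B1 on the log2 scale. PYGL, with 0.31 (SE 0.28), was the gene not past the threshold.

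The third question was how the lines differed from each other. In low glucose, 5 of the 9 genes were lower in MDA-MB-468 past the threshold (PYGL, GBE1, PYGB, AKR1B1 and PGM1), 3 were higher (UGP2, GYG1 and GYS1), and SORD was not past it. Over all genes of that fit 40.4% were lower and 45.0% higher. PYGL had the widest gap, 48.8-fold lower in MDA-MB-468 in low glucose (log2 difference -5.61, SE 0.20), on the log2(normalized reads + 1) scale. GBE1 was 3.76-fold lower (log2 difference -1.91, SE 0.05), PYGB 2.76-fold lower (-1.46, SE 0.03) and AKR1B1 2.37-fold lower (-1.25, SE 0.03). UGP2 was 1.74-fold higher in MDA-MB-468 (log2 difference 0.80, SE 0.03).

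In high glucose, 4 of the 9 genes were lower in MDA-MB-468 (PYGL, AKR1B1, GBE1 and PYGB) and 3 higher (GYG1, UGP2 and SORD), where 40.6% of all genes were lower and 44.6% higher. PGM1 and GYS1, which differed between the lines in low glucose, had log2 differences of -0.01 (SE 0.03) and 0.01 (SE 0.04) in high glucose. The PGM1 value became 0.08 and past the threshold after quantile rescaling, and that of GYS1 became 0.09 and past it after a correction for GC content. GYG1 went the other way, from a log2 difference of 0.35 (SE 0.06) in low to 0.83 (SE 0.06) in high glucose, and AKR1B1 from -1.25 to -1.66 (SE 0.03).

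**Figure D3:**
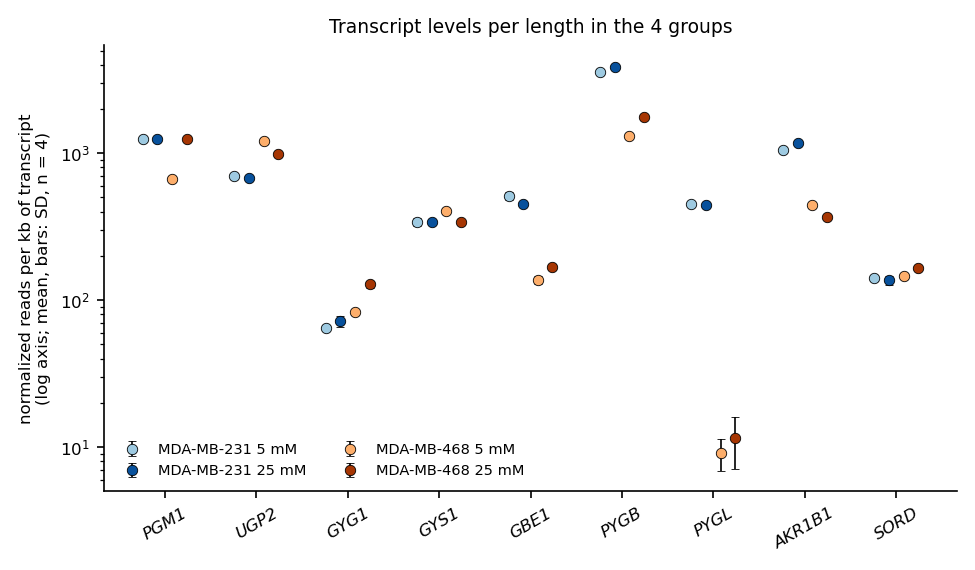
Mean normalized reads per kb of canonical transcript (y axis, log scale; bars are SD, n = 4) of the 9 genes in the 4 groups. PYGB is highest in every group, and PYGL in MDA-MB-468 lies near 10, below all other values.

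Levels were compared between genes per kb of canonical transcript. In low-glucose MDA-MB-231 the order was PYGB (3594 ± 129 normalized reads per kb, SD, n = 4), PGM1 (1248 ± 14.9), AKR1B1 (1049 ± 26.4), UGP2 (695 ± 16), GBE1 (514 ± 30.1), PYGL (453 ± 7.92), GYS1 (341 ± 21.3), SORD (141 ± 5.56) and GYG1 (64.9 ± 2.6). High glucose kept this order, with GBE1 (450 ± 15.9) and PYGL (443 ± 5.99) within 1 SD of each other. In low-glucose MDA-MB-468 PYGB (1303 ± 29) was followed by UGP2 (1210 ± 50.6), PGM1 (672 ± 24.1), AKR1B1 (441 ± 16.1) and GYS1 (406 ± 20.1). SORD (145 ± 5.32) and GBE1 (137 ± 9.12) lay within 1 SD of each other there, above GYG1 (82.6 ± 3.62) and PYGL (9.1 ± 2.22). In high-glucose MDA-MB-468 PGM1 (1250 ± 34.5) stood above UGP2 (981 ± 36.2), and GBE1 (168 ± 8.65) and SORD (166 ± 3.19) could not be ordered.

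Other genes were taken from 4 lists: other glycogen genes, other polyol and fructose genes, UDP-glucose users and tonicity genes. The UDP-glucose and tonicity lists reach beyond the glycogen and polyol pathways. The lists held 44 genes in all, of which 39 were in the table. In MDA-MB-231 35 of them were tested, 3 rose and 2 fell, where 5.71% of all genes rose and 9.37% fell. After GC content correction 4 rose and 5 fell there, beside 1198 and 1828 of all 14884 genes. After quantile rescaling 3 rose and 1 fell, beside 1027 and 1114 of all genes. In the main fit 850 of all genes rose and 1395 fell. In MDA-MB-468 36 were tested, 9 rose and 14 fell, where 24.9% of all genes rose and 22.7% fell. With 1 replicate left out, between 19 and 22 were past the threshold in MDA-MB-468, below the 23 of the main fit. Fewer of all genes passed in those fits too. Nothing is read from these counts as particular to the lists. The labels do not say that replicates came from separate cultures, so these p-values measure only the spread between samples, which may be technical. The lists and the overlapping genes were chosen with values or earlier results of these data known. Their p-values therefore describe these genes and are not independent support.

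Of 25 other glycogen genes (phosphorylase kinase subunits, phosphatase targeting subunits, a lysosomal enzyme and others), 20 were tested in each line. In MDA-MB-468 6 rose and 6 fell, with a median log2 fold change of 0.023. EPM2A, which encodes laforin, a phosphatase that acts on glycogen, had the largest change and fell from 343 ± 21.3 to 195 ± 3.03 normalized reads (log2 fold change -0.81, SE 0.07, limma adjusted p 5.6e-08). GYG2, the second glycogenin, rose from 64.8 ± 13 to 98.7 ± 8.13 (0.62, SE 0.15, limma adjusted p 0.0022), in the same direction as GYG1 in this line. PPP1R3C, which targets protein phosphatase to glycogen, rose from 346 ± 18.1 to 493 ± 38.5 (0.51, SE 0.06, limma adjusted p 7.82e-06). Of the 20, 1 was past the threshold in MDA-MB-231, GAA, the lysosomal enzyme that degrades glycogen. GAA fell from 1407 ± 137 to 1177 ± 65.1 (log2 fold change -0.25, SE 0.06, limma adjusted p 0.00795).

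Of 7 other polyol and fructose genes, 5 were tested in MDA-MB-468 and 4 in MDA-MB-231. AKR1A1, the related aldehyde reductase, rose in both lines, with log2 fold changes of 0.33 in MDA-MB-468 (limma adjusted p 1.92e-05, SE 0.05) and 0.27 in MDA-MB-231 (limma adjusted p 0.00135, SE 0.05). TKFC, which phosphorylates glyceraldehyde made from fructose, rose in MDA-MB-468 from 625 ± 28.2 to 1014 ± 50.4 (0.70, SE 0.05, limma adjusted p 8.4e-09). AKR1B15 fell there from 93.8 ± 6.17 to 65 ± 6.38 (-0.52, SE 0.12, limma adjusted p 0.00181), and is uncertain because AKR1B10 is close to it in sequence.

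Of 6 genes whose products use or make UDP-sugars from UDP-glucose or fold with it, 1 rose and 3 fell in MDA-MB-468, and 1 rose and 1 fell in MDA-MB-231. UGDH, which makes UDP-glucuronate, fell in MDA-MB-468 by 0.17 (SE 0.04, limma adjusted p 0.00464) and rose in MDA-MB-231 by 0.17 (SE 0.04, limma adjusted p 0.006), the directions seen for AKR1B1. UGCG, which makes glucosylceramide, fell in MDA-MB-468 by 0.38 (limma adjusted p 1.85e-05) and in MDA-MB-231 by 0.14 (0.0338, a call that 7 of 20 alternatives lost). In MDA-MB-468 UGGT1, a folding sensor, fell by 0.24 (limma adjusted p 0.00249).

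Of 6 tonicity genes (the factor NFAT5 and genes it is known to regulate, as it does AKR1B1), 5 were tested in each line. In MDA-MB-468 4 fell and 0 rose, beside 22.7% and 24.9% of all genes: SLC38A2, an amino acid transporter, by 0.65 (SE 0.03, limma adjusted p 4.09e-11), HSPA4L by 0.62 (SE 0.07, 3.69e-06), NFAT5 by 0.49 (SE 0.08, 6.09e-05), and SLC6A6, the taurine transporter, by 0.16 (SE 0.06, 0.0371), a call that 5 of 20 alternatives lost and whose groups overlapped. In MDA-MB-231 SLC38A2 rose by 0.14 (SE 0.03, limma adjusted p 0.00585), though its groups overlapped, and the other 4 were not past the threshold. SLC38A2 is also known as a target of the amino acid response.

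**Figure D4:**
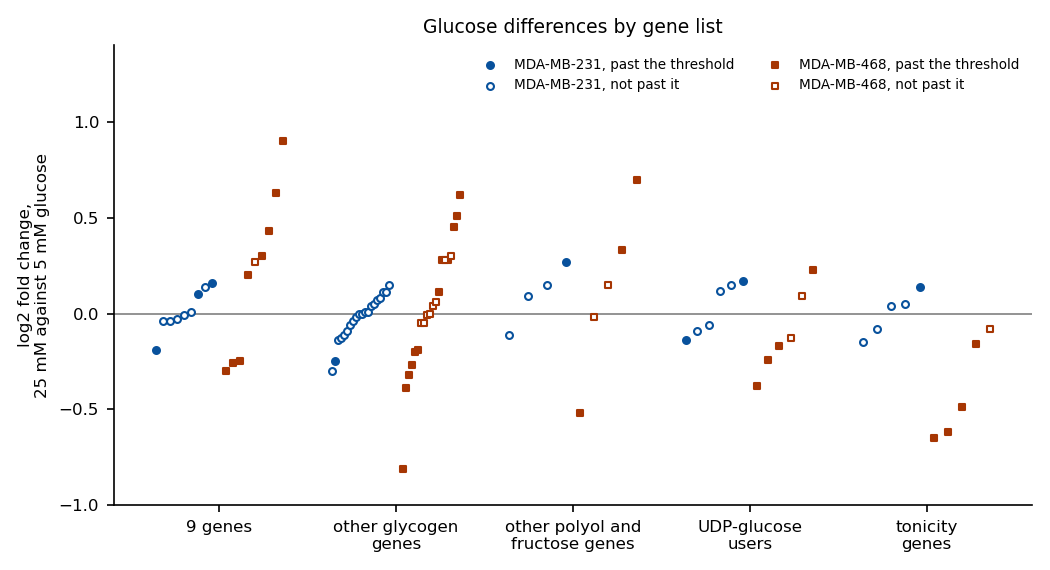
Log2 fold change in 25 mM against 5 mM glucose (y axis) of each tested gene of the 9 and of the 4 other lists (x axis), in MDA-MB-231 (circles, left) and MDA-MB-468 (squares, right), with filled symbols past the threshold. The MDA-MB-231 values lie between -0.30 and 0.27, while those of MDA-MB-468 run from -0.81 (EPM2A) to 0.90 (PGM1).

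For each of the 9 genes, the genes with the most similar pattern were found by Pearson's r over the 16 samples of log2 values after each line's mean was subtracted, among 12810 genes with a symbol tested in both lines. PGM1 was closest to PRPSAP1 and R3HCC1 (r 0.993 for both), which had log2 fold changes of 1.62 and 2.04 in MDA-MB-468 and of -0.05 and -0.02 in MDA-MB-231. PYGB was closest to MGAT4B (0.99) and EPHB2 (0.986), UGP2 to CNST (0.978) and SEH1L (0.966), and GYG1 to LINC00667 (0.975). GYS1 was closest to ESYT1 (0.957) and GRAMD1A (0.946), and AKR1B1 to CYB5R4 and BTG1 (0.94 for both), which also had opposite signs in the 2 lines. GBE1 was closest to H2AZ2 and ACTL6A (0.934 for both), SORD to BMAL1 (0.906) and PLCD4 (0.894), and PYGL, whose values are low in MDA-MB-468, to ADAMTSL5 (0.871) and WSB1 (0.862). All these values share the same libraries and the same glucose contrast. The genes were picked for the highest r among the 12810, so a shared direction follows from the choice. Some high r is found in so large a search even for a gene with little glucose difference, such as PYGL.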

How the data were processed

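RNA sequencing of 16 samples was used. Per the study's methods, the authors trimmed reads with Trimmomatic, aligned them to hg19 with Tophat and an Ensembl annotation, and used DESeq2 and edgeR; the submitters' processing notes list hg38 and edgeR. The counting program and its use of strand are not given in the sources used here. The deposited values are a normalized signal, in which the authors had scaled read counts by size factors. In each library 100% of values were whole multiples of 1 step within a tolerance of 0.001 reads, so whole reads were recovered.

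Of 18332 IDs, 17647 matched a GENCODE annotation lifted to GRCh37, which gave symbols, coordinates and canonical transcript lengths. limma 3.58.1 in R 4.3.3 (lmFit, eBayes with trend, two-sided) was run on log2(value + 1), with a filter of 0.5 CPM in 2 samples of the fit and Benjamini-Hochberg adjustment over all genes at 0.05. Each line was fitted alone, and line differences and interaction over all 16 samples. edgeR 4.0.16 and DESeq2 1.42.0 on recovered reads were alternatives. The steps were tested on simulated data. The members, lists and tests were chosen with earlier results of these data known. Genes named outside the 9 were, per list and line, up to 3 with the largest change past the threshold, plus the 2 most similar genes per member; VIM, CDH1, EPCAM, EGFR and ESR1 were listed markers for checking the lines. HLTF, ABHD12, ITGB3BP, SORD2P, AKR1B10, SLC6A6, PHKG1 and SLC2A5 were named after their values were seen. Some genes that this rule picks are not reported here.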

Additional observations from a re-analysis of the deposited data

Results flagged for a closer look

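The glucose differences of GBE1 and AKR1B1 had opposite signs in the 2 lines, with no overlap of the glucose groups in either line. The differences between lines (MDA-MB-468 minus MDA-MB-231, log2 scale) were 0.49 and -0.42. As these genes were chosen with their values known, these differences were not tested.

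Genes named by rule from the other lists were picked for their glucose change, which favored a difference between the lines beforehand. Of all 38 genes of the lists in the interaction fit, 6 had a higher glucose difference in MDA-MB-468 and 10 a lower one. Over all genes of that fit, 17.0% were higher and 13.9% lower. Of the genes named by rule, 8 had a glucose difference that differed between the lines there, and their p-values are given as a description. The differences were 0.81 for TKFC (limma adjusted p 5.67e-07) and 0.56 for PPP1R3C (0.0189), which were higher in MDA-MB-468. They were -0.92 for EPM2A (limma adjusted p 3.7e-06), -0.79 for SLC38A2 (1.21e-09), -0.54 for HSPA4L (0.000134), -0.34 for UGDH (7.14e-05), -0.34 for NFAT5 (0.0292) and -0.24 for UGCG (0.0144). The NFAT5 call was lost in 10 of 28 alternatives. Of the genes named after their values were seen, SLC6A6 (-0.22, limma adjusted p 0.0442, lost in 11 of 28 alternatives) and ABHD12 (0.37, limma adjusted p 9.47e-05) also differed between the lines.

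The lowest PGM1 sample in low-glucose MDA-MB-231, at 2864 normalized reads, was far from the other 3 by Dixon's ratio (0.865). It was 1 of 36 groups checked, and chance flags about 1 in 20. The PGM1 values of this group had a coefficient of variation of 1.19%.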

How the results depend on the processing

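The counts of the 9 genes past the threshold were unchanged in MDA-MB-468 (8) and for the interaction (8) under every alternative run, edgeR, DESeq2 and the leave-one-out fits included. In MDA-MB-231 the count of 3 became 2 where PYGB was lost, which happened without a filter, with the replicate block, and without low-glucose replicate 2 or high-glucose replicate 1, 3 or 4. Fewer of all genes passed in each of these fits too. Between 564 and 755 rose and between 1053 and 1291 fell, beside 850 and 1395 in the main fit. For the line differences, SORD in low glucose passed the threshold after a transcript length correction (log2 difference 0.15), GYS1 in high glucose after a GC content correction (0.09), and PGM1 in high glucose turned from -0.01 to 0.08 after quantile rescaling; the cause was not tested. Of the other genes, the MDA-MB-231 count of 5 (3 rose, 2 fell) became 9 (4 rose, 5 fell) after GC content correction. Of all genes there, 850 rose and 1395 fell in the main fit, against 1198 and 1828 after that correction. The count became 4 (3 rose, 1 fell) after quantile rescaling, where 1027 of all genes rose and 1114 fell. It ran from 4 to 6 when 1 replicate was left out, where 564 to 914 of all genes rose and 1055 to 1475 fell. The MDA-MB-468 count of 23 other genes ran from 19 to 22 when 1 replicate was left out. Of all genes there, 3528 to 3895 rose and 3174 to 3503 fell in those fits, beside 3925 and 3570 in the main fit. Same-numbered replicates showed no clear pairing: their deviations correlated between -0.04 and -0.00512 in MDA-MB-231 and between 0.0167 and 0.0319 in MDA-MB-468, and samples correlated best with their own number for 0 of 4 and 3 of 4 numbers. With the replicate number as a block, 2 of the 9 genes passed in MDA-MB-231, 8 in MDA-MB-468 and 8 for the interaction. Of the other genes, 4 and 21 passed in the 2 lines. Of all genes, 571 rose and 1053 fell in MDA-MB-231 with this block, and 3855 rose and 3528 fell in MDA-MB-468. For the interaction, 2674 of all genes were higher and 2100 lower with it. No blocked fit was made for the line differences, since the numbers do not link the lines. Depth limits PYGL in MDA-MB-468, with at most 44 recovered reads a library.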

Other observations

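Some of the other genes of these pathways had at most 5 recovered reads a library in 1 line and more in every library of the other. They were picked after their values were seen. PHKG1, the catalytic phosphorylase kinase subunit known from muscle, had between 60 and 105 recovered reads a library in MDA-MB-468 and at most 5 in MDA-MB-231. AKR1B10 had between 78 and 132 reads in MDA-MB-468 and at most 4 in MDA-MB-231. SLC2A5, the fructose transporter, ran the other way, with between 26 and 50 reads in MDA-MB-231 and at most 5 in MDA-MB-468.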
